A study of Rattus norvegicus with 46 samples.

Results

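The duodenal villus tip of iron-repleted Wistar rats was compared with that of normally fed Wistar rats, to ask what still differed from normal feeding after 3 days of returned iron. The comparison used the 3 villus top arrays of iron-repleted rats and the 4 villus top arrays of control rats, 7 of the 46 arrays of the series, over all 31042 probe sets that were not array controls. All the rats compared were Wistar +/+ animals that entered the study at 1 month of age and were fasted overnight before death. The iron-repleted rats had eaten a low-iron diet and lost 2 to 3 ml of blood every 3 days for 4 weeks, and were then given ferric ammonium citrate at 50 µM in the drinking water over their last 3 days. Another rat of that group died under anesthesia during bleeding. The iron-deficient rats, 4 animals used here beside them, had the same diet and bleeding and no iron salt. The control rats ate a normal diet and were not given the iron salt, so that returned iron, the earlier low-iron diet and the bleeding differ together between repleted and control rats. From each rat a duodenal segment near the stomach was cut into frozen sections across the villus axis, and RNA was taken from pooled sections of the upper part of the villi (villus top) and of their lower part (villus bottom). Each array is therefore a mixture of all cells in that slice of the wall, and fewer cells of a type cannot be told apart from less RNA per cell.

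The proximal duodenum is the main site of dietary iron absorption. Ferric iron is reduced at the brush border by duodenal cytochrome b (Cybrd1), enters the enterocyte through the divalent metal transporter (Slc11a2), leaves on the basal side through ferroportin (Slc40a1) and is oxidised there by hephaestin (Heph). In iron deficiency the transcription factor HIF-2, whose degradation needs iron and oxygen, raises several of these genes in the intestine, and it shares many targets with the general response to low oxygen. Heme taken up from food or turned over in the cell is opened by heme oxygenase 1 (Hmox1), which releases its iron.

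Levels are log2 of the deposited intensity plus 44 after quantile normalization, so that a difference of 1 is a factor of 2, and a level under 8 is treated here as dim because no detection calls were used. The arrays of control rats 1 and 2 were near-identical, with a robust SD of 0.138 between them over 5464 bright probe sets against 0.354 to 0.403 for the other pairs of control rats, and were counted as 1 sample. Control levels below are given in the order of this averaged sample, rat 3 and rat 4, and repleted levels in the order of rats 1, 2 and 3. Repleted rat 3 stood apart from the other two repleted rats: the robust SD was 0.688 against rat 1 and 0.715 against rat 2, while rats 1 and 2 differed by 0.351. Its array had a median deposited intensity of 1179 against 622 to 701 for the other villus top arrays of the 3 Wistar groups, and 20.4% of its signal lay in the 100 brightest probe sets, against 14.0% and 13.6% in repleted rats 1 and 2. Xist, which is transcribed in female cells, was bright in repleted rat 3 and control rat 4 alone among these 11 rats, at 14.13 and 14.51, and the labels used here do not give the sex. Named villus top calls that were lost or gained without repleted rat 3 are therefore named as such. The enterocyte markers bore out the labelled tissue: the 9 measured ones averaged 16.57, 16.63 and 16.75 in the repleted rats, against 16.72 to 17.12 in the 4 control rats.

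Of the 31042 probe sets, 49 differed between repleted and control villus tops at an adjusted p under 0.05 (called below), 0.158% of those tested. They comprised 12 that were higher in repleted rats (0.0387%) and 37 that were lower (0.119%). The test was limma's moderated test in a fit shared by the 6 villus top groups of the series, with Benjamini-Hochberg adjustment over all probe sets. Beside the control, deficient and repleted Wistar rats, these groups were Belgrade (b/b) rats on a normal diet or given iron for 3 or 6 days. The Belgrade rats entered no difference given here, but informed the normalization and the spread between rats. At an unadjusted p under 0.05 there were 4496 probe sets (14.5%). Whatever their p, 49.2% of all probe sets and 47.2% of the brightest probe sets of each gene were higher in repleted rats. Without repleted rat 3 these shares were 50.3% and 50.0%. At each of the 49, all repleted rats lay on the same side of all counted control samples, which held for 16.8% of all probe sets. These shares are a description, since the same levels entered the choice of the 49. Without repleted rat 3, 247 probe sets were called (0.796%), 111 higher (0.358%) and 136 lower (0.438%). The 40 called both ways were 81.6% of the 49 and 16.2% of the 247. The 9 called with rat 3 included and not without it were probe sets of Abhd3, Abhd5, Cdk5rap3, Etfb, Fkbp2, Osbpl2, Tes and Vav2 and 1 without a symbol. They kept their direction without rat 3, with adjusted p-values of 0.0534 to 0.0735. The count moved with other rats too: it was 348 without repleted rat 1 and 102 without repleted rat 2, which held 48 and 23 of the 49. Leaving out the averaged control rats 1 and 2, control rat 3 or control rat 4 gave 2, 3 and 1 called probe sets, with 1, 2 and 1 of the 49 among them. With only the repleted and control rats in the fit, 1 probe set was called, and it was not among the 49. With no variance trend, 1 of the 49 was called, that of Ninj2. The count also moved with the scaling: centring each array on its median in place of quantile normalization put the median difference of all probe sets at -0.23 and gave 386 calls, 18 higher and 368 lower (4.66% higher, against 24.5% under quantile normalization), and the values as deposited gave 48 calls, 6 higher and 42 lower (12.5% higher). Of the 49, 41 recurred with median centring and 32 with the values as deposited.

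Heme oxygenase 1 had the smallest adjusted p of the comparison and was higher in every repleted rat. Hmox1 stood at 14.16, 14.32 and 13.72 in the repleted rats, at 13.31, 13.88, 13.71 and 14.44 in the deficient rats, and at 11.54, 12.53 and 12.03 in the controls. The lowest repleted rat was above the highest control, and the repleted values lay within the range of the deficient ones. The difference from control was 2.04 ± 0.27 (SE, n = 3 against 3, adjusted p = 0.00368), and 2.21 without repleted rat 3 (adjusted p = 0.00185). Hmox1 was also the single named gene called whichever control sample was left out, and it missed the threshold with only the repleted and control rats in the fit (adjusted p = 0.190), with no variance trend (0.0654) and among the rats with low Xist alone (0.0505). No other heme gene was called with all rats: of 13 measured genes of heme synthesis and breakdown, 4 were higher and 9 lower, with a median difference of -0.42. The rat medians were 0.03, -0.26 and -0.79, the last being that of rat 3, and the median without rat 3 was -0.16. Biliverdin reductase A (Blvra), which acts on the product of heme oxygenase, stood at 9.45, 8.46 and 11.03 in the repleted rats and at 11.68, 11.004 and 11.52 in the controls. Its highest repleted value, that of rat 3, reached the lowest control, and it fell by 2.45 only without rat 3 (adjusted p = 0.0143, against 0.114 with all rats).

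The apical uptake pair was above control in most repleted rats, but neither gene was called by its brightest probe set. Cybrd1 was at 17.33, 17.51 and 16.93 in the repleted rats, averaged 17.47 ± 0.10 in the deficient rats (SD, n = 4, as for the deficient means that follow), and was at 16.92, 16.53 and 16.83 in the controls. Repleted rats 1 and 2 were clear of the controls and rat 3 was level with the highest of them. The difference was 0.50 ± 0.17 (adjusted p = 0.189) and 0.66 without rat 3 (adjusted p = 0.107). The brightest probe set of Slc11a2 was at 17.28, 17.41 and 16.95 in the repleted rats, averaged 17.17 ± 0.16 in the deficient rats, and was at 16.43, 17.14 and 16.72 in the controls. Repleted rat 3 lay below control rat 3, and the difference of 0.45 had an adjusted p of 0.249. The less bright probe set of Slc11a2 separated the groups, with 15.24, 16.15 and 14.61 in the repleted rats against 14.03, 14.51 and 14.12 in the controls. Its difference of 1.11 was not called with all rats (adjusted p = 0.0952) and was called at 1.47 without rat 3 (adjusted p = 0.0186).

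The export side and the transferrin receptor showed no call. Ferroportin (Slc40a1) was at 17.11, 17.22 and 17.18 in the repleted rats and at 17.06, 16.73 and 17.08 in the controls, a difference of 0.22 ± 0.16 (adjusted p = 0.548) by the brightest of its 3 probe sets. Hephaestin, at 16.80, 16.60 and 16.73 in the repleted rats and 16.77, 16.57 and 16.67 in the controls, differed by 0.04 ± 0.16 (adjusted p = 0.935), and the groups interleaved. The transferrin receptor (Tfrc), through which cells take up circulating iron, spanned 12.49 to 13.92 in the repleted rats and 12.13 to 14.64 in the controls. Across the 16 measured genes of iron uptake, export and storage, 8 were higher and 8 lower, with a median of -0.05 (0.02 without rat 3). Ferritin genes were not analysed here.

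The called member of the iron list was a divalent metal importer that fell. Slc39a8, which carries zinc, manganese and iron, was at 12.19, 10.84 and 11.39 in the repleted rats, averaged 11.44 ± 0.23 in the deficient rats, and was at 13.40, 12.69 and 13.20 in the controls. All repleted rats were below all controls, and the difference was -1.63 ± 0.33 (adjusted p = 0.0490; -1.58 and 0.0437 without rat 3). Among copper genes, the copper-exporting ATPase Atp7a, which loads copper for delivery out of the enterocyte, was called by the least bright of its 3 probe sets. That probe set was at 10.77, 12.05 and 12.70 in the repleted rats and 9.96, 9.85 and 9.79 in the controls, a difference of 1.97 ± 0.34 (adjusted p = 0.0384). Its brightest probe set, at 14.48, 15.90 and 14.38 in the repleted rats and 13.72, 14.16 and 13.79 in the controls, also had all repleted rats above all controls. That difference of 1.03 was called only without rat 3 (1.30, adjusted p = 0.0404, against 0.106 with all rats). The remaining Atp7a probe set split the repleted rats. Relative to the control mean it was 2.30 in the mean of rats 1 and 2 and -1.21 in rat 3, and it was called only without rat 3. The remaining 12 of the 13 measured copper and zinc genes had no call.

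**Figure D1:**
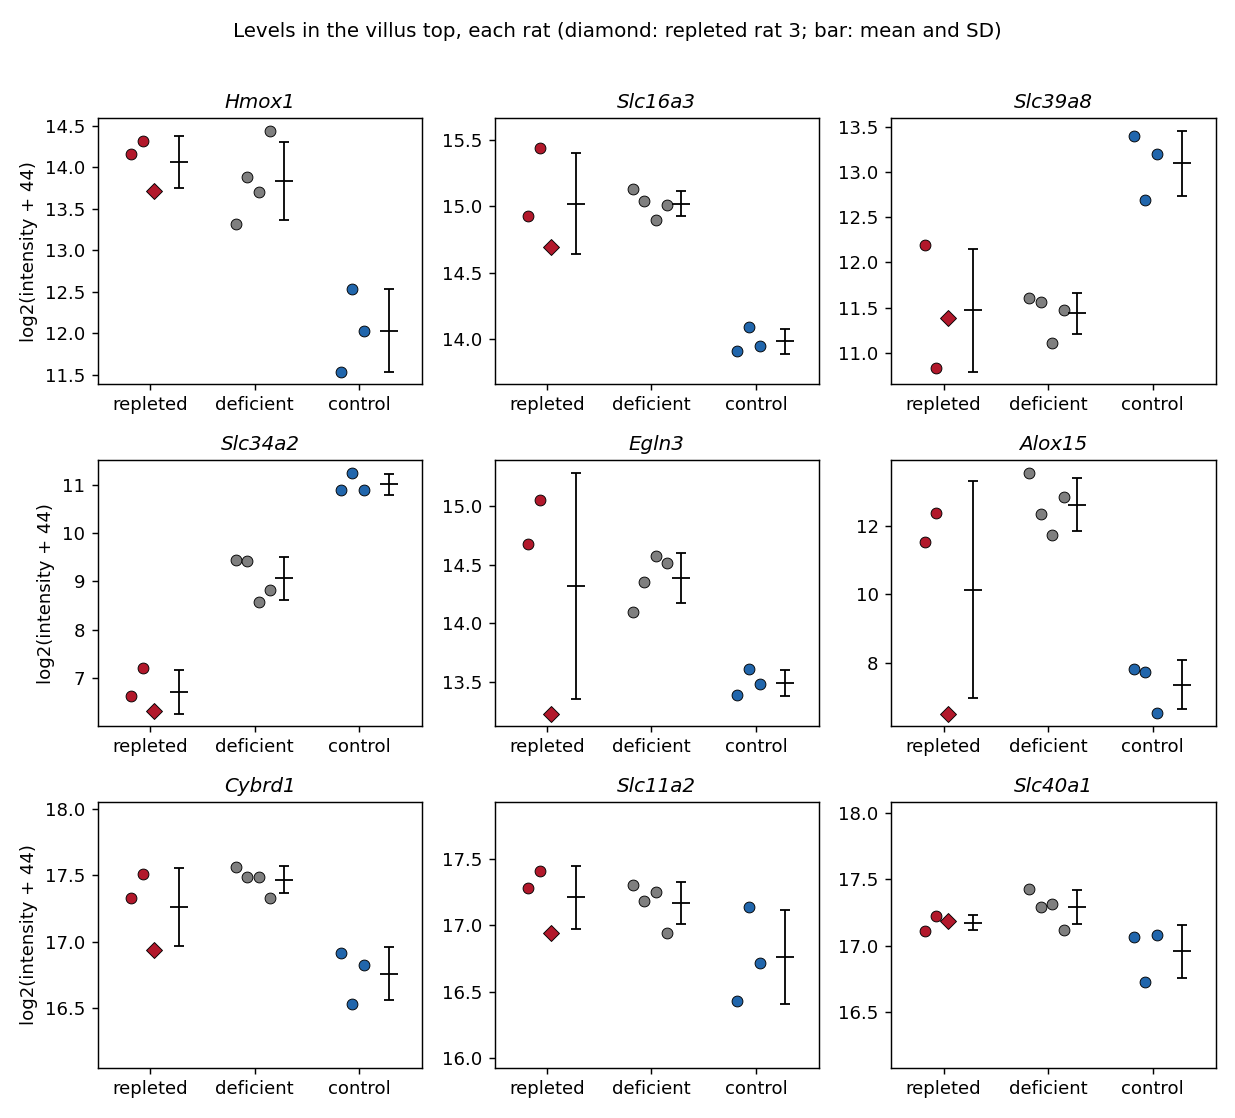
Log2(intensity + 44) (vertical axes, each gene on its own scale, none starting at 0) of each repleted, deficient and control rat for 9 genes, by the brightest probe set. The diamond is repleted rat 3, bars are the mean and SD of each group, and the first control point is the mean of the near-identical rats 1 and 2. Hmox1 and Slc16a3 have every repleted rat above every control, Slc39a8 and Slc34a2 have every repleted rat below, and for Egln3 and Alox15 repleted rat 3 lies at or below the lowest control.

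Of 29 measured genes that respond to low oxygen, 1 was called with all rats, and 7 were called without repleted rat 3, all of them higher. With all rats, 23 were higher and 6 lower, beside 49.2% of all probe sets that were higher. The 29 genes had a median difference of 0.57 against -0.01 for all probe sets. The median was 0.70 in rat 1, 1.02 in rat 2 and 0.01 in rat 3. Single genes of rat 3 lay far to both sides of control: the ankyrin repeat gene Ankrd37 was at 6.48 in rat 3 against a control mean of 10.10, while the adenylate kinase gene Ak4 was at 9.90 in rat 3 against a control mean of 6.81. Only Slc16a3, the lactate exporter MCT4, was called with all rats: it was at 14.93, 15.44 and 14.69 in the repleted rats, averaged 15.02 ± 0.10 in the deficient rats, and was at 13.91, 14.09 and 13.95 in the controls. Its lowest repleted value exceeded its highest control, with a difference of 1.04 ± 0.19 (adjusted p = 0.0412) and 1.20 without rat 3 (adjusted p = 0.0112). It missed the threshold in 9 of 20 alternative settings, with an adjusted p of up to 0.366.

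Without rat 3 the median of the 29 was 0.82. Their 7 higher calls stand beside 65 higher calls among the 14217 brightest probe sets, 1 per gene as in the list. Over all probe sets, 0.358% were called higher. Egln3, a prolyl hydroxylase that marks HIF subunits for destruction, was at 14.68, 15.05 and 13.23 in the repleted rats and at 13.39, 13.61 and 13.48 in the controls. Rats 1 and 2 were above every control and rat 3 was below every control, and the difference was 0.83 with all rats (adjusted p = 0.201) and 1.37 without rat 3 (adjusted p = 0.00551). Ddit4, an inhibitor of growth signalling through mTOR complex 1, was at 13.58, 13.32 and 12.28 in the repleted rats and 11.99, 12.18 and 12.05 in the controls, a difference of 1.38 without rat 3 (adjusted p = 0.0143; 0.116 with all rats). Bhlhe40, a transcriptional repressor, was at 14.23, 13.77 and 12.93 in the repleted rats and 12.27, 12.88 and 13.03 in the controls, a difference of 1.27 without rat 3 (adjusted p = 0.0152). The glucose transporter Slc2a1 (1.60), the collagen prolyl hydroxylase P4ha1 (2.23) and the glycolytic enzyme Pgk1 (0.86) were the other calls, with adjusted p-values of 0.0474, 0.0250 and 0.0447 without rat 3. With all rats these were 0.136, 0.4445 and 0.337. Rat 3 was above every control for Slc2a1 (11.62 against 10.95 to 11.31). It was below every control for P4ha1 (8.98 against 10.07 to 10.50) and Pgk1 (15.73 against 15.79 to 16.09). Glycolysis genes outside that group were split. Of 9 measured, 6 were higher and 3 lower without rat 3, with a median of 0.03. With all rats 4 were higher and 5 lower, with a median of -0.05.

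The 250 bases upstream of Slc16a3, Egln3, Ddit4, Bhlhe40, P4ha1 and Slc2a1 (RefSeq, build GRCr8, each read 5′ to 3′ on the gene's own strand) are shown because these 6 are the oxygen-response genes called without rat 3 that have an entry; Pgk1 was the other call. Capitals mark the core letters of the HIF site, ACGTG or GCGTG, on either strand; CACGTG reads the same on both strands, so that its 2 matches overlap.
Slc16a3, chr10:106712078-106712327, + strand: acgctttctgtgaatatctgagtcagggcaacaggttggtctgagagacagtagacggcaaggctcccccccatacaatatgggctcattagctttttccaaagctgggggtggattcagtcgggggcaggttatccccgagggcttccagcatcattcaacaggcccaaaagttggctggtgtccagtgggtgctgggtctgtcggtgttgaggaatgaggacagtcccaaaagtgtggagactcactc
Egln3, chr6:77411016-77411265, - strand: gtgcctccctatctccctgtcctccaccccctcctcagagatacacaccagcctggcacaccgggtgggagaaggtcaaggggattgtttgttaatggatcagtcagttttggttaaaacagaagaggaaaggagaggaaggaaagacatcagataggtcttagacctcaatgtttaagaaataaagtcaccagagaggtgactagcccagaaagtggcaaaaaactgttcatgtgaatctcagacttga
Ddit4, chr20:28437038-28437287, - strand: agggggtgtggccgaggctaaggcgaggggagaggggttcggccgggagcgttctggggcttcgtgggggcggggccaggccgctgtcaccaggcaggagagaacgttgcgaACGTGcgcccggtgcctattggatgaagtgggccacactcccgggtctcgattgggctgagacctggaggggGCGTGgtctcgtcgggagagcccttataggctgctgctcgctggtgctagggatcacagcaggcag
Bhlhe40, chr4:143174200-143174449, + strand: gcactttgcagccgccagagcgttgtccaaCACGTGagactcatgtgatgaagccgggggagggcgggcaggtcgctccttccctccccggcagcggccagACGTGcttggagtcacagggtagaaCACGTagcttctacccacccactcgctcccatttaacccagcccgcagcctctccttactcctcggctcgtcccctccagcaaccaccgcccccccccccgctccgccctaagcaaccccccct
P4ha1, chr20:27844796-27845045, + strand: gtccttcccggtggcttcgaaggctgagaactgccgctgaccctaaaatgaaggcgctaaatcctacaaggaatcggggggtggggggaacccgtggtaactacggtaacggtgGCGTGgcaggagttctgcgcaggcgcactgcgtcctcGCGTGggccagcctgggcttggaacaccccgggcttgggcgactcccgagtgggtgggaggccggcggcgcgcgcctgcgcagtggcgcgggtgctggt
Slc2a1, chr5:138002272-138002521, + strand: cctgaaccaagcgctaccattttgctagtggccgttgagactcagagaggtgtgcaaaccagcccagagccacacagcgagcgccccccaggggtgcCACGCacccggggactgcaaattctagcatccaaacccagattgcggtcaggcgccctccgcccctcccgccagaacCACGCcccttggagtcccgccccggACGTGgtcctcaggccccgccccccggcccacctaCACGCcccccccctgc

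The Slc16a3 and Egln3 stretches held neither motif, the Ddit4 and P4ha1 stretches held 2 matches each, and the Bhlhe40 and Slc2a1 stretches held 4 each. Of these 6 called genes, 4 thus had a match. Of the 25 oxygen-response genes with a RefSeq entry, 18 (72.0%) had a match, and 36.7% of all 33469 promoters of this length did. The units differ: a listed gene counted if any of its entries matched, as for Kdm3a with 1 of 2, while the share of all was taken over single entries. ACGTG was in 16.6% and GCGTG in 25.9% of all promoters. The motif counts describe these letters and were not set against any binding data.

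The repleted group was split at Alox15, a lipoxygenase that oxidises arachidonic and linoleic acid. It was at 11.53, 12.36 and 6.51 in the repleted rats, at 13.56, 12.33, 11.74 and 12.84 in the deficient rats, and at 7.82, 7.73 and 6.54 in the controls. Repleted rats 1 and 2 were within or just under the deficient range, and rat 3 was as dim as the lowest control. The difference of 4.58 ± 0.62 without rat 3 was called (adjusted p = 0.00189), and 2.77 ± 0.94 with all rats was not (adjusted p = 0.175).

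Slc34a2, a sodium-phosphate cotransporter of the brush border, had the largest difference among the 49 called probe sets. It was at 6.62, 7.21 and 6.32 in the repleted rats, at 9.44, 9.43, 8.57 and 8.82 in the deficient rats, and at 10.88, 11.25 and 10.89 in the controls. The 3 groups did not overlap, and all repleted values were dim. The difference from control was -4.29 ± 0.79 (adjusted p = 0.0412; -4.09 and 0.0335 without rat 3), and that from the deficient rats was -2.35, which was not called (adjusted p = 0.272). The difference from control missed the threshold in 6 of 20 alternative settings, with an adjusted p of up to 0.219. Of 15 measured nutrient transport genes, Slc34a2 among them, 2 were higher and 13 lower, with a median of -0.46 and no other call with all rats. The 2 higher ones were the water and glycerol channel Aqp7 (0.44, adjusted p = 0.618) and the bile acid transporter Slc10a2 (1.34, adjusted p = 0.438). The rat medians were -0.53, -0.91 and -0.08, the last being that of rat 3. Slc13a2, a sodium-dicarboxylate cotransporter outside that list, also fell, at 13.29, 13.73 and 13.94 in the repleted rats and 15.03, 14.50 and 14.81 in the controls (difference -1.13 ± 0.20, adjusted p = 0.0412).

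Without rat 3, the water channel Aqp8 and the amino acid carrier Slc6a20a were called as well. Aqp8 was at 8.94, 7.78 and 12.04 in the repleted rats, averaged 8.33 ± 0.60 in the deficient rats, and was at 14.75, 12.61 and 13.92 in the controls. All repleted rats were below all controls, with rat 3 closest to them, and the difference was -5.40 without rat 3 (adjusted p = 0.0186) and -4.17 with all rats (adjusted p = 0.0781). Slc6a20a differed by -2.24 without rat 3 (adjusted p = 0.0267) and by -1.83 with all rats (adjusted p = 0.0752). The 9 measured brush border digestion genes, the hydrolases and the actin-bundling villin (Vil1), had no call with or without rat 3: 1 was higher and 8 were lower, with a median of -0.43 (-0.60 without rat 3), sucrase-isomaltase (Si) at -0.95 (adjusted p = 0.282) and aminopeptidase N (Anpep) at -0.43 (adjusted p = 0.558) among them.

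The other named rises with a gene symbol ranged from 0.82 to 3.04. Rac1, a GTPase that organises actin, rose by 1.04 ± 0.19 by its less bright probe set (adjusted p = 0.0412), and its brightest differed by 0.67 (adjusted p = 0.0603). The kinase gene Map2k1 rose by 0.95, the myosin light chain gene Myl12a by 0.82 and the focal adhesion gene Tes by 0.88, with adjusted p-values of 0.0466, 0.0490 and 0.0490. Myl12a had close replicates, at 15.66, 16.00 and 15.93 in the repleted rats and 15.05, 15.03 and 15.05 in the controls. Abhd5, which activates triglyceride breakdown, rose by 0.92 and Osbpl2, which carries sterols, by 1.09 (adjusted p = 0.0490 each). Without rat 3 neither was called, with 0.85 for Abhd5 (adjusted p = 0.0534) and 0.98 for Osbpl2 (adjusted p = 0.0602), nor was Tes (0.76, adjusted p = 0.0735). The called genes Amacr and Abhd3, which also act on lipids, fell, as given below. The 16 measured lipid absorption genes held no call with or without rat 3. With all rats 6 of them were higher and 10 lower, with a median of -0.11. Without rat 3, 4 were higher and 12 lower, with a median of -0.16. The heat-shock chaperone Hspa1a rose by 1.496 ± 0.31, with 13.61, 14.35 and 13.46 in the repleted rats against 12.32, 12.34 and 12.27 in the controls (adjusted p = 0.0490). Ninj2, a cell-surface adhesion protein described in nerve, showed the highest called rise with a gene symbol: it was at 9.59, 9.44 and 8.57 in the repleted rats, averaged 6.81 ± 0.66 in the deficient rats and was dim in all controls, at 6.05, 6.13 and 6.31 (difference 3.04 ± 0.56, adjusted p = 0.0412).

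The called falls included Etfb, Etfrf1, Ndufaf4, Amacr, Tmlhe and Aldh18a1, placed together here by their known roles after their values were seen. Etfb, a subunit of the flavoprotein that passes electrons from fatty acid oxidation to the respiratory chain, was at 14.88, 14.59 and 14.33 in the repleted rats against 15.36, 15.37 and 15.41 in the controls, a difference of -0.78 ± 0.16 (adjusted p = 0.0490) that was not called without rat 3 (-0.65, adjusted p = 0.0618). Etfrf1, a regulator of that flavoprotein, fell by 1.65 ± 0.28 (adjusted p = 0.0384) and Ndufaf4, an assembly factor of respiratory complex I, by 2.25 ± 0.47 (adjusted p = 0.0490). Amacr, which prepares branched fatty acids for oxidation, fell by 2.16 ± 0.38 (adjusted p = 0.0384), Tmlhe, the first enzyme of carnitine synthesis, by 1.44 ± 0.26 and Aldh18a1, of proline synthesis, by 1.83 ± 0.35 (adjusted p = 0.0412 each). The 21 measured genes of the mitochondrial respiration list held no call with or without rat 3. With all rats 20 of them were lower, beside 47.2% of the brightest probe sets of all genes that were higher. Their median was -0.43, with rat medians of -0.27, -0.51 and -0.36. Without rat 3 all 21 were lower, with a median of -0.35. The complex I subunits Ndufa9 (-0.70, adjusted p = 0.0710) and Ndufs1 (-0.64, adjusted p = 0.140) and the complex III subunit Cyc1 (-0.67, adjusted p = 0.137) were examples. Outside that list, the complex I subunit Ndufb3 (-0.76, adjusted p = 0.0359) and the ATP synthase subunits Atp5po (-0.94, adjusted p = 0.0474) and Atp5f1e (-0.79, adjusted p = 0.0429) fell without rat 3, and were not called with all rats. These subunits were picked by their roles after their values were seen. The deficient rats had a median of -0.25 from control over the 21 listed genes.

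The other called falls that are named were in genes of varied roles, each with all 3 repleted rats below the controls. Casp1, the protease that activates interleukin-1 beta, was at 13.05, 12.50 and 13.27 in the repleted rats and 14.23, 14.15 and 14.23 in the controls (difference -1.26 ± 0.26, adjusted p = 0.0490). Lta4h, which makes leukotriene B4, fell by 1.30 ± 0.24 (adjusted p = 0.0412). The membrane skeleton protein Epb41l3 fell by 1.29 ± 0.20, the second smallest adjusted p (0.0296), by the less bright of its 2 probe sets, and the actin-severing protein Scin by 2.68 ± 0.53 (adjusted p = 0.0490). B3galt5, a glycosyltransferase, fell by 2.18 ± 0.41 (adjusted p = 0.0412). Cdk5rap3 was at 8.59, 7.01 and 6.17 in the repleted rats and 10.54, 10.95 and 10.28 in the controls, a difference of -3.34 ± 0.67 (adjusted p = 0.0490) that was not called without rat 3 (-2.79, adjusted p = 0.0579).

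Several of the steepest falls rested on a dimmer probe set of a gene whose other probe sets differed less. Mical3, an enzyme that disassembles actin filaments, was at 6.54, 9.33 and 8.45 in the repleted rats against 12.42, 12.18 and 11.13 in the controls by the second brightest of its 3 probe sets (difference -3.80 ± 0.69, adjusted p = 0.0412). Its brightest probe set was at 11.08, 10.91 and 11.90 in the repleted rats and 12.08, 11.60 and 11.86 in the controls. The called probe set of the coactivator gene Crebbp differed by -3.09 ± 0.60 and was the third brightest of 5, while the brightest was at 12.87, 12.88 and 13.81 in the repleted rats and at 12.85, 12.80 and 12.89 in the controls. For Klf5, a transcription factor of the intestinal epithelium, the dimmest of 4 probe sets was called (-2.84 ± 0.57), and the brightest differed by -0.40. Tet3, a DNA demethylase, and Abhd3, a phospholipase, were likewise called by a less bright probe set (-2.50 ± 0.48 and -2.01 ± 0.42), that of Abhd3 not without rat 3 (-1.502, adjusted p = 0.0681). Differences of these genes as a whole are therefore uncertain.

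**Figure D2:**
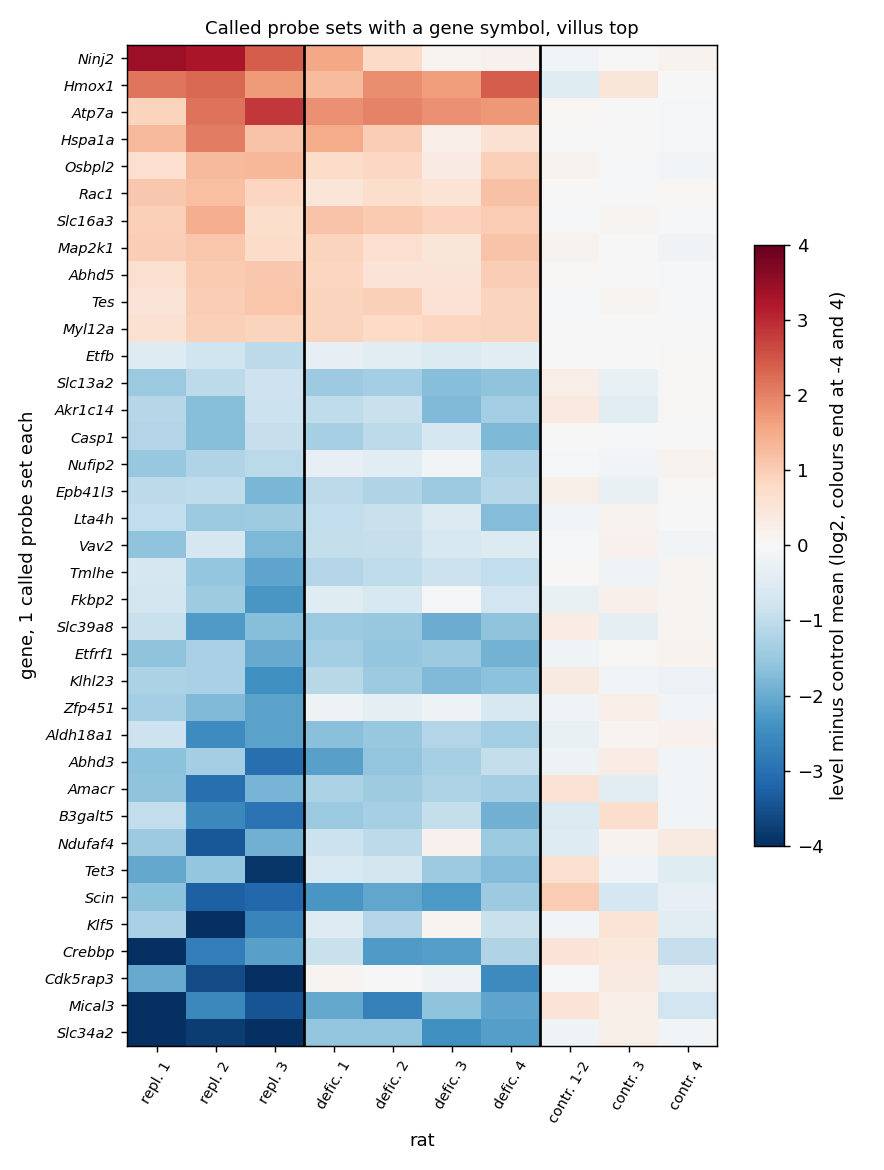
Level minus the control mean (colour, log2, red higher and blue lower, ending at -4 and 4) of the called probe sets with a gene symbol, 1 row each in order of the difference, in the repleted, deficient and control rats (columns; rats 1 and 2 of the controls are averaged). The 3 repleted columns share their colour direction in every row, Ninj2 being the highest rise and Slc34a2 the deepest fall, and the Atp7a row is its least bright probe set.

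Repleted rats 1 and 2 without rat 3 gave a larger set of calls. Of the 247 probe sets called, 207 were not called with rat 3 included. At 168 of the 247 (68.0%) rat 3 was nearer to the control mean than to the mean of rats 1 and 2, against 50.9% of all probe sets, and at 65 (26.3%) it was within the control range, against 27.3% of all. These shares are a description, since the control mean enters both the choice and the count. The epithelial adhesion gene Lamb3, a laminin chain of the basement membrane, was at 14.76, 15.07 and 12.13 in the repleted rats, averaged 14.22 ± 0.43 in the deficient rats, and was at 12.64, 12.63 and 12.02 in the controls. Rats 1 and 2 were far above all controls and rat 3 within them (2.48 ± 0.31 without rat 3, adjusted p = 0.00185). The surface protein gene Lypd3 was at 12.91, 12.95 and 9.35 in the repleted rats and 10.06, 10.66 and 10.61 in the controls, with rat 3 below every control (2.49 ± 0.40, adjusted p = 0.00920).

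Other rises without rat 3 were those of the potassium channel subunit Kcne3 (2.75, adjusted p = 0.0359) and of Fntb, the beta subunit of farnesyltransferase (3.08, adjusted p = 0.0230). Fntb was at 14.01, 13.12 and 12.29 in the repleted rats and 10.18, 11.21 and 10.07 in the controls, higher in all 3 repleted rats, and missed the threshold with all of them (2.65, adjusted p = 0.0586). The falls included the drug-metabolising cytochrome Cyp2d2 (-4.08, adjusted p = 0.0129), the calcium-binding protein Rgn (-3.79, adjusted p = 0.0474), the glutathione transferase Mgst1 (-2.27, adjusted p = 0.0355) and Nxpe4 (-3.91, adjusted p = 0.0429). Cyp2d2 was at 10.12, 6.27 and 13.06 in the repleted rats and at 12.33, 11.78 and 12.71 in the controls, so that rat 3 was above every control. Nxpe4 was at 9.98, 9.26 and 14.81 in the repleted rats and 13.75, 12.85 and 13.99 in the controls, again with rat 3 above every control. The immunoglobulin joining chain Jchain, a plasma cell gene, was at 11.52, 10.52 and 15.04 in the repleted rats and at 13.66, 15.60 and 13.68 in the controls (-3.29 without rat 3, adjusted p = 0.0373).

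**Figure D3:**
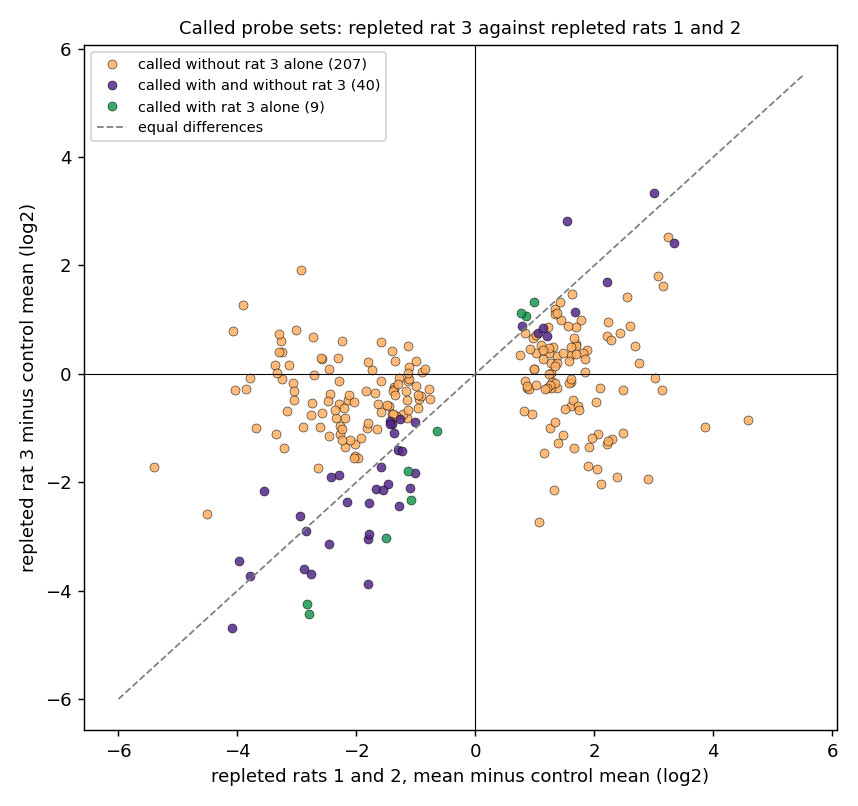
Difference from the control mean in repleted rat 3 (vertical axis, log2) against the mean difference of repleted rats 1 and 2 (horizontal axis, log2), 1 point for each probe set called with or without rat 3; the dashed line marks equal differences. The 40 called both ways (purple) and the 9 called with rat 3 alone (green) all lie on the same side of 0 in rat 3 as in rats 1 and 2, as do 129 of the 207 called without rat 3 alone (orange). Rat 3 itself entered the choice of the purple and green points.

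Other gene groups had few or no calls, and their medians are given beside the median of -0.01 over all probe sets, of which 49.2% were higher. Cholesterol synthesis genes were higher at 12 of 15, with a median of 0.49 and rat medians of 0.76, 1.09 and -0.06. Squalene epoxidase (Sqle) was at 13.96, 14.23 and 12.64 in the repleted rats, averaged 14.19 ± 0.51 in the deficient rats, and was at 11.34, 13.69 and 12.66 in the controls (difference 1.05, adjusted p = 0.269). The mean level of the 15 genes was 13.51, 13.72 and 12.54 in the repleted rats, against 12.004, 11.79, 13.38 and 13.05 in control rats 1 to 4. The 2 near-identical controls were therefore the low ones, and repleted rats 1 and 2 were just above the other controls. Genes of immediate early response and heat shock were higher at 11 of 15, with a median of 0.71, rat medians of -0.08, 0.66 and 0.90, and Hspa1a as the only call. Splicing factors and kinases were lower at 18 of 24, with a median of -0.43 and no call with all rats (without rat 3 the splicing factor gene Rbm39 fell, at -0.97, adjusted p = 0.0474), Clk4 (-1.32, adjusted p = 0.0603) and Srrm2 (-1.27, adjusted p = 0.0586) being the nearest to it. Iron sensing genes were higher at 11 of 13 (median 0.35) with no call.

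Markers of other cell types moved with some of these groups, and their part in the results was not tested. The 4 measured red blood cell markers averaged 11.95, 11.17 and 9.93 in the repleted rats, against 10.04 to 10.45 in the controls. Rats 1 and 2 were above every control and rat 3 below every control. The mean level of the 29 oxygen-response genes was 12.79, 13.05 and 12.04 in the repleted rats, against 12.02 to 12.13 in the controls, with rats 1 and 2 above the controls there as well and rat 3 among them. Beta-globin (Hbb) was at 16.24, 15.14 and 13.25 in the repleted rats against 13.57, 13.68 and 13.84 in the controls, and the erythroid heme enzyme Alas2 was called without rat 3 (2.11, adjusted p = 0.0359). The 11 exocrine pancreas markers averaged 8.28, 7.15 and 7.87 in the repleted rats, against 11.02, 11.05, 7.98 and 8.30 in control rats 1 to 4, and their median difference was -1.40 with all controls and -0.41 without the near-identical ones. The 5 markers of intraepithelial cytotoxic lymphocytes were all lower, at a median of -0.88, and 8 of 10 markers of other lymphocytes, plasma and antigen-presenting cells were lower, at -0.53, with rat 3 at 0.40. The 16 markers of smooth muscle and stroma averaged 12.80, 12.82 and 11.82 in the repleted rats, against 12.51 to 12.92 in the controls, rat 3 being the low one. The 6 Brunner gland and gastric markers were higher at 5, averaging 9.31, 9.27 and 9.64 in the repleted rats and 7.58 to 8.26 in the controls, with no call and several members dim.

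**Figure D4:**
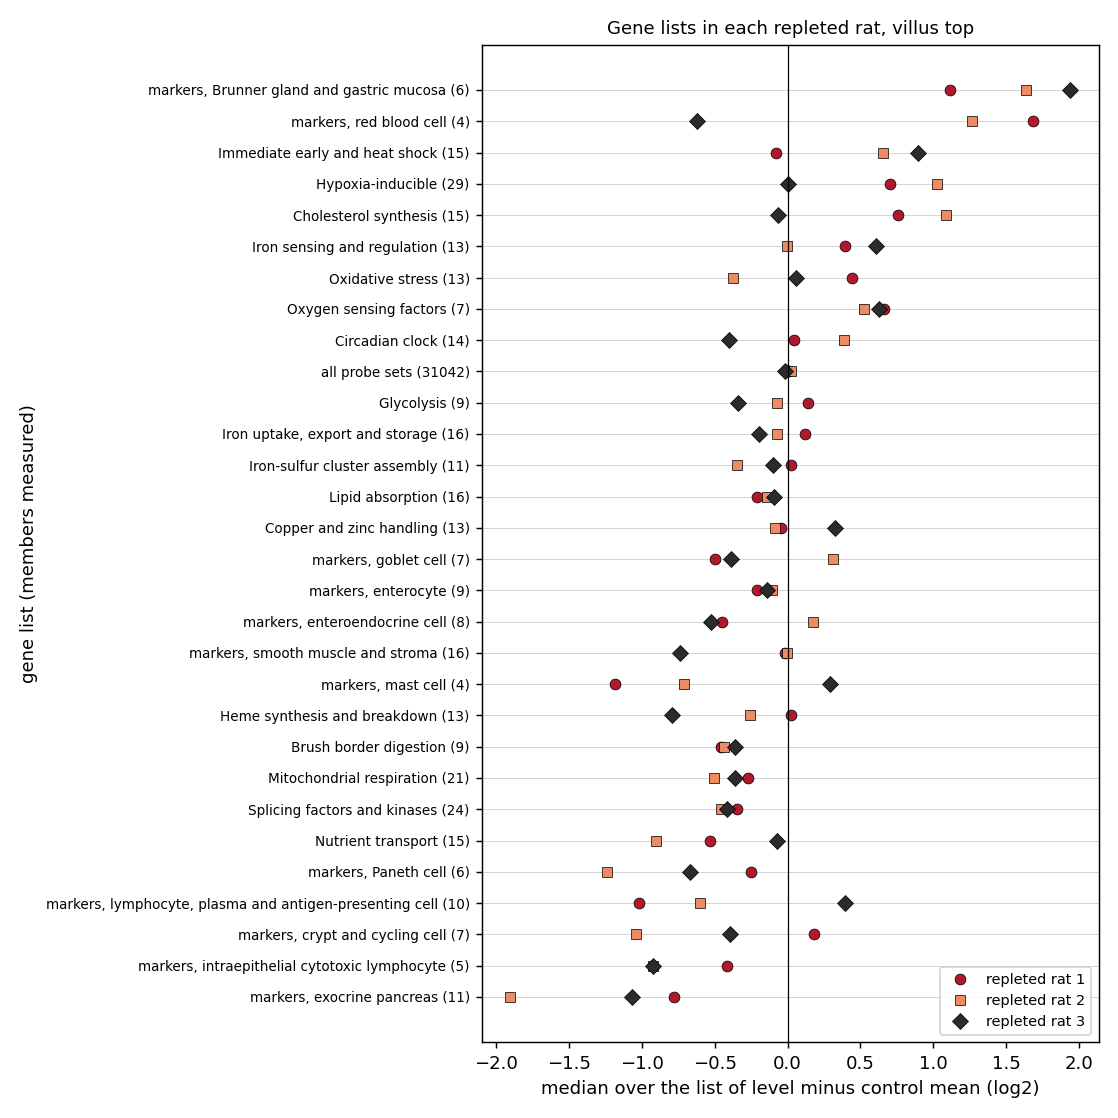
Median over the measured members of each gene list of the level minus the control mean (horizontal axis, log2) in repleted rats 1, 2 and 3 (circle, square, diamond), lists ordered by the difference with all rats. Repleted rat 3 departs from rats 1 and 2 for oxygen-response, cholesterol synthesis and red blood cell genes, and lies with them for mitochondrial respiration and splicing genes.

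Set against the deficient rats, the repleted rats showed no call: 0 of 31042 probe sets (0%) passed with all repleted rats, where the smallest adjusted p was 0.140 and 3717 probe sets had an unadjusted p under 0.05, and 0 passed without rat 3 (2292 unadjusted). The comparisons of repleted and of deficient rats with control share the control samples, so their likeness is not a result of its own. For Hmox1 the repleted minus deficient difference was 0.23 (adjusted p = 0.748), for Slc16a3 -0.002 (0.998), for Cybrd1 -0.21 (0.632) and for Slc39a8 0.04 (0.977). Higher genes among the smallest p-values were dim in the deficient rats, as for Xylt1, which starts proteoglycan chains, at 9.44, 9.42 and 9.36 in the repleted rats against a mean of 6.32 ± 0.41 in the deficient rats. A count of 0 among 3 rats and 4 rats does not show that the 2 groups were alike.

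The villus bottom of the same rats gave 0 calls between repleted and control (3052 with an unadjusted p under 0.05, smallest adjusted p 0.0749). A test of the top difference minus the bottom difference within rats called 3 probe sets (0.00966%), and 14 without rat 3. For Mical3 the difference was -3.80 in the top and -0.32 in the bottom, and the change between segments was -3.48 ± 0.43 (adjusted p = 0.00758). For Ninj2 it was 3.04 in the top and -0.29 in the bottom, a change of 3.33 ± 0.50 (adjusted p = 0.0498). Ninj2 was dim in all these bottom arrays, at 6.12, 6.27 and 6.33 in the repleted rats and 5.97 to 6.98 in the controls. Its bottom difference therefore cannot show whether Ninj2 changed there. Shroom3, which shapes epithelial cells through the apical actin ring, was at 10.48, 10.68 and 12.74 in repleted tops and 9.24, 9.23 and 10.09 in control tops. That top difference of 1.78 was not called (adjusted p = 0.107). The bottom difference was -1.54 and the change 3.32 ± 0.42 (adjusted p = 0.00758), by the less bright of its 2 probe sets. In the bottom, repleted rats 1 and 2 were dim, at 6.90 and 6.34. Repleted rat 3, at 9.63, was above every bottom control (8.92 to 9.53). For Hmox1 and Slc16a3 the bottom differences were 1.502 and 1.096, beside 2.04 and 1.04 in the top. By the brightest probe sets, the bottom differences of Cybrd1, Slc11a2 and Slc40a1 were 2.19, 1.02 and 0.85, beside 0.50, 0.45 and 0.22 in the top. Those of Heph and Tfrc were 0.09 and -0.015, beside 0.04 and -0.37 in the top. None of these iron genes was called in the bottom or in the test between segments. The bottom arrays of repleted rat 3 and control rat 3 were rich in smooth muscle and stroma markers (15.25 and 15.45, against 13.02 and 13.04 in the other repleted rats and 12.91 to 13.94 in the other controls), and their part in the bottom values was not tested.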

How the data were processed

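Gene expression in the villus top was measured on single-colour arrays, with the deposited table holding 1 intensity per probe set and array. Per the labels, the arrays are of rat duodenum, and the authors' deposited intensity values are linear; the signal algorithm is not given in the sources used here. A mean trimmed by 2% at each end was 2501 on most arrays and 2876 on 4 arrays of the series, control rat 3 among those used here. The number of arrays limits the precision, and p-values measure the spread between separate rats. From 31099 probe sets, 57 array controls were left out, leaving 31042. Values were set to log2(intensity + 44), 44 being the 10th percentile of the villus values, and quantile-normalized over the 44 villus arrays. Gene names came from the platform annotation: 20826 probe sets have 1 symbol, 436 several and 9780 none.

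The test was limma 3.58.1 (lmFit, eBayes with a trend) in R 4.3.3, two-sided, with 1 fit over 20 counted samples of 6 villus top groups, near-identical rats (robust SD under 0.2) averaged, and Benjamini-Hochberg adjustment. The within-rat test used top minus bottom. The procedure was tested on simulated data. Rat numbers did not pair repleted with control rats: the correlations of their deviations lay between -0.03 and 0.04. The members and gene lists were chosen with earlier results of these data known. Genes were named by a rule: 9 iron and oxygen genes always, up to 12 called rises and 12 called falls with 1 symbol and no overlap, up to 10 each way without repleted rat 3, up to 4 per gene list, and up to 5 each way from the other tests; where 5 or fewer probe sets were called they are all named. Called genes outside it (Epb41l3, Etfb, Etfrf1, Tmlhe, Lta4h, Casp1, Slc13a2, Fkbp2, Vav2, and without rat 3 Ndufb3, Atp5po and Atp5f1e) and list members beyond the 4 were chosen after their values were seen. A gene in a list is represented by its brightest probe set. Alternatives changed the scaling, pseudocount, filter, samples, variance model and block. Promoters are RefSeq's for build GRCr8.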

Additional observations from a re-analysis of the deposited data

Results flagged for a closer look

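Within the 4 deficient rats, 2 of 49 named probe sets had a value set apart from the rest, where chance gives about 1 in 20. Deficient rat 4 had a Cdk5rap3 level of 8.04, against 10.71, 10.57 and 10.39 in the other deficient rats. It had a Cyp2d2 level of 10.59, against 9.79, 9.71 and 9.67.

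The repleted minus control difference itself differed between villus top and villus bottom by limma's test within rats at 3 probe sets. The change was -3.48 for Mical3, 3.33 for Ninj2 and 3.32 for Shroom3. In the bottom, Ninj2 was dim in all repleted and control rats and Shroom3 was dim in repleted rats 1 and 2.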

How the results depend on the processing

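The difference of Hmox1 stayed between 1.77 and 2.29 under all alternatives, and it missed the threshold in 3: with only the groups compared in the fit (adjusted p = 0.190), with no variance trend (0.0654), and with only rats of low Xist (0.0505), the last an alternative chosen after seeing the data. The 49 calls of repleted against control became 386 with median centring, 31 with a smaller pseudocount, 1 with only the groups compared, 608 with all 22 rats counted separately, 1 with no trend, 141 with array weights, 100 with Xist as covariate and 0 with only rats of low Xist (3576 unadjusted), and ranged from 1 to 348 when a replicate was left out. With rat number as a replicate block and all rats counted separately they were 1223, where the near-identical controls count as separate samples and the numbers did not pair the rats. The 1 call with only the groups compared was not among the 49. Repleted against deficient, 0 calls became 2 with the replicate block and 6 with no trend, and ranged from 0 to 55 when a replicate was left out. The 3 calls of top minus bottom became 1 with median centring, 0 with only the groups compared, 6 with rats counted separately, 8 with the replicate block and 0 with low Xist, and ranged from 0 to 22. Of 977 recomputed values of named probe sets, 963 kept their direction. The others were uncalled. Heph, at 0.04, became -0.0564 with median centring and -2e-04 with the block, and ranged from -0.0087 to 0.0945 when a replicate was left out. The dimmest Slc40a1 probe set, at 0.71, became -0.0554 with array weights and -0.20 with low Xist, and ranged from -0.37 without repleted rat 3 to 1.2955. The dimmer Tfrc probe set, at -0.42, became 0.11 with weights and 0.34 with low Xist and ranged from -1.1513 to 0.0507, and the brighter, at -0.37, became 0.0308 and 0.0642 there and ranged from -1.0597 to 0.19. Of 459 recomputed called values, 271 stayed past the threshold. The cause of these changes was not tested. Dim levels limit the falls, since they may stand at the floor of the arrays.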
